A study of Mus musculus with 6 samples.

Results

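The response described here is the change in messenger RNA between the vehicle and the KLA library of mouse macrophages transfected with Smyd5 siRNA, which are 2 of the 6 libraries of the series. A gene was measured when its recovered reads averaged at least 10 over the 6 libraries, which held for 7995 of 23282 gene symbols. The cells of every group came from the peritoneum of female C57BL/6 mice after thioglycollate and were kept with siRNA for 48 hours, and the agent was vehicle or KLA at 100 ng per ml for 4 hours. The labels call KLA an LPS, Kdo2-lipid A. The other 4 libraries are the vehicle and KLA libraries of cells given control siRNA (siCtl) and of cells given Phf2 siRNA (siPhf2), and each pair is called an arm. Each group is 1 library, and the labels do not say how many mice or cultures it holds, so no p-value is given and every interval covers counting error only. A depleted transcript and fewer cells of a kind that makes it cannot be told apart in such bulk RNA.

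Kdo2-lipid A is the part of bacterial lipopolysaccharide that binds the receptor TLR4 with its partners MD-2 and CD14. The adaptor MyD88 links TLR4 to NF-kB and MAP kinases, which act on cytokine, chemokine and feedback genes. The adaptor TRIF (gene Ticam1) leads to IRF3 and interferon beta, which in turn acts through JAK kinases and STAT factors on antiviral genes with an interferon-stimulated response element (ISRE) in their promoters. Smyd5 encodes a SET and MYND domain methyltransferase that has been linked to trimethylation of histone H4 lysine 20, a mark of silent chromatin, and Phf2 a demethylase of the same mark.

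The siSmyd5-labelled libraries held 921923 (vehicle) and 919329 (KLA) recovered reads, and Rn45s, the precursor of ribosomal RNA, made up at most 1.2% of them. The siCtl-labelled libraries held 1359283 and 1429520 reads. The siPhf2-labelled libraries held 577055 and 420141, of which Rn45s took 66.7% and 71.6%, and 464 and 1198 of the measured genes had no read in them, against 25 and 6 in the siSmyd5-labelled pair. For siCtl and siPhf2, the total in a column's header gives whole reads only with the other column's values. Names or totals of these columns were therefore exchanged, and the table does not tell which. The siSmyd5 columns fit their own totals. A gene that responds differently from both other arms stays so whichever of these names is right.

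Smyd5 (NM_144918, chr6:85381970-85396423 on mm9) had 9 reads in the siSmyd5-labelled vehicle library and 20 in the KLA library. It had 44 and 29 reads in the siCtl-labelled pair and 3 and 0 in the siPhf2-labelled pair. Scaled with TMM to reads per 1000000 (CPM), its level was 5.94 under vehicle in the siSmyd5-labelled arm against 18.1 (siCtl) and 12.2 (siPhf2), and 14.2 under KLA against 12.9 and 0. Smyd5 was thus lowest in the siSmyd5-labelled library under vehicle but not under KLA, where it was at the level of the siCtl-labelled library. Its KLA to vehicle ratio in the siSmyd5-labelled arm was 2.39 (95% counting interval 1.04 to 5.96). Phf2 (NM_011078, chr13:48897119-48966254) had 52 and 34 reads in this arm, a ratio of 0.703 (0.442 to 1.10). Its level was 34.3 and 24.1 CPM here and 46.4 and 53.2 in the siCtl-labelled pair. In the siPhf2-labelled pair it was 118 and 57.7 CPM, from 29 and 8 reads. Phf2 was thus not lowest in the pair labelled with its own siRNA. Because the target's level under KLA does not separate the arms, samples are named by their labels throughout.

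The labelled cell type was checked against marker genes. All 8 macrophage markers had reads in both siSmyd5-labelled libraries, among them the lysozyme gene Lyz2 with 2500 and 2424 reads, Cd68 with 2454 and 1489, the integrin Itgam with 673 and 707 and Emr1, which encodes F4/80, with 425 and 451. The markers of B cells, T and NK cells, neutrophils, eosinophils and mast cells and dendritic cells had at most 13 reads each in these libraries. Collagen genes of stromal cells were present (Col1a1 276 and 287, Col1a2 316 and 341, Col3a1 231 and 203 reads), and none of the 5 measured stromal markers was called in either direction. The summed level of all 8 stromal markers was 676 CPM under vehicle and 745 under KLA. In the siCtl-labelled pair that sum was 899 and 937, and in the siPhf2-labelled pair 512 and 368.

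KLA changed a broad set of genes in the siSmyd5-labelled arm, and more of them rose than fell. A gene is said to have risen or fallen when its log2 ratio of KLA to vehicle, with 2 reads added in proportion to the libraries, was at least 1 in size and the exact Poisson 95% interval of the ratio excluded equality. By this rule 694 of the 7995 measured genes rose (8.68%) and 278 fell (3.48%). The median log2 ratio of all measured genes was 0, with quartiles of -0.32 and 0.38. Of the genes that rose, 252 did so by a log2 ratio of at least 2, 136 by at least 3, 67 by at least 4 and 13 by at least 6, whereas 21 genes fell by a log2 ratio of 2 or more and 5 by 3 or more. The genes that rose took 30274 reads under vehicle and 132968 under KLA, or 3.32% and 14.6% of all reads other than Rn45s. Those that fell took 21609 and 7366 reads, or 2.37% and 0.808%. Many started from few reads, since 177 of the 694 had under 10 vehicle reads and 19 had none. Among genes looked up after their values were seen, just inside the threshold were Plk2 (1098 and 2045 reads) and Oas3 (123 and 231), and just outside it were Pnpt1 (43 and 82) and Smg1 (120 and 225).

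**Figure D1:**
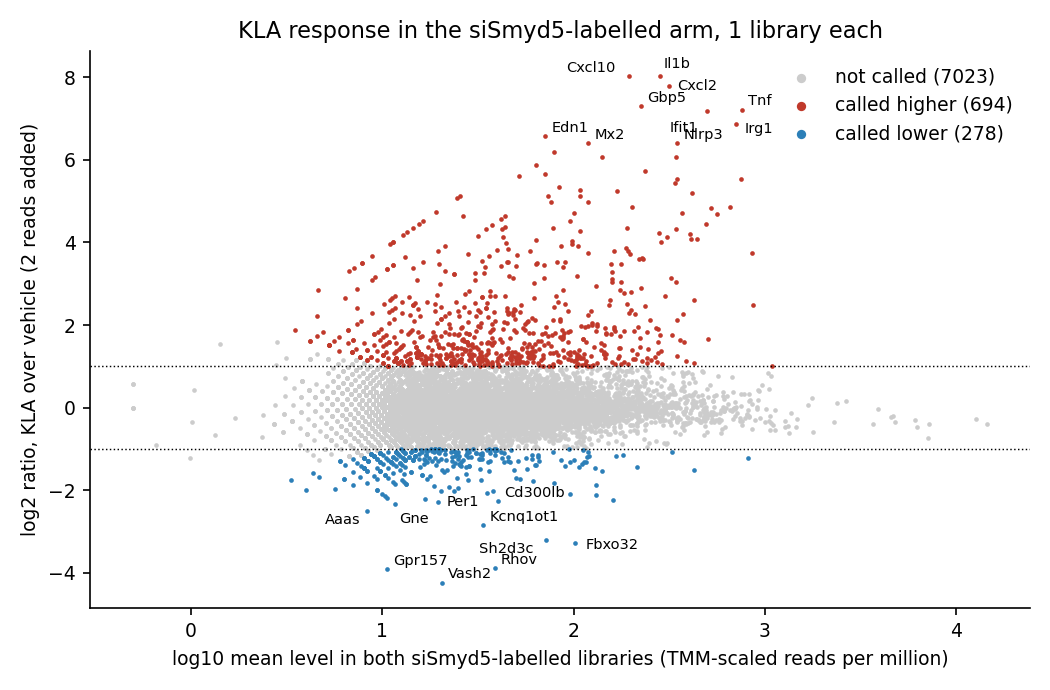
Log2 ratio of KLA to vehicle in the siSmyd5-labelled arm (vertical axis) against the mean level of both libraries on a log10 axis, with levels under 0.5 drawn at 0.5. Each point is a gene, red for the 694 called higher and blue for the 278 called lower, dotted lines mark a log2 ratio of 1 in either direction, and the 10 largest rises and falls are named.

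The largest rises were in genes of the inflammatory and the antiviral response, several of them near absent under vehicle. Il1b (NM_008361, chr2:129190316-129196856), which encodes interleukin 1 beta, had 1 vehicle read and 795 KLA reads, a log2 ratio of 8.03. With 1 read below, its ratio of 855 has an interval of 153 to 33797. Cxcl10 (NM_021274, chr5:92775665-92777915), a chemokine for activated T cells, had 0 and 548 reads, which is at least 196-fold higher against a floor of 3 reads per library. Cxcl2, a neutrophil chemokine, had 2 and 883 reads (log2 ratio 7.80). Gbp5, a guanylate-binding protein of the interferon response, had 2 and 629 reads (7.31). In these 4 genes the vehicle library was at 0 to 2 reads, so the size of each rise has no narrow upper limit.

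The better counted of the 10 largest rises had enough vehicle reads for narrower intervals. Tnf (NM_013693, chr17:35336336-35338941), the gene of tumor necrosis factor, had 13 vehicle and 2118 KLA reads, a ratio of 175 (102 to 329). Ifit1 (NM_008331, chr19:34715379-34724499), which encodes an antiviral RNA-binding protein, had 8 and 1397 reads, a ratio of 188 (95.0 to 436). Irg1, the itaconate-making enzyme of activated macrophages, had 16 and 1979 reads, a ratio of 133 (81.7 to 233). These intervals overlap, so the 3 rises cannot be ranked. Nlrp3, the inflammasome sensor, had 10 and 968 reads, a ratio of 104 (56.3 to 218). The antiviral GTPase gene Mx2 had 2 and 334 reads. Edn1, which encodes endothelin 1, had 0 and 201 reads, at least 72.0-fold higher.

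All 10 genes rose in the other arms too. With siCtl, the vehicle and KLA reads were 0 and 901 for Il1b, 1 and 526 for Cxcl10, 28 and 4929 for Tnf, and 27 and 1360 for Ifit1. With siPhf2 they were 10 and 296 for Il1b, 3 and 107 for Cxcl10, 31 and 729 for Tnf, and 11 and 208 for Ifit1. The KLA libraries were above the vehicle libraries of every arm for each of these genes, and Ifit1 was the one of the 10 whose rise here was called larger than in both other arms, as described further on.

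Promoter sequences are shown for the largest rise that holds matches to the binding motifs of NF-kB and of interferon-activated factors, and for the largest fall, to set beside the counts of motifs given later. They are RefSeq sequences of GRCm38.p6 from 250 bases before to 50 after the start, 5′ to 3′ on the strand of the gene, and capitals mark motif matches on either strand. The motifs searched were ISRE (GAAA, any 2 bases, GAAA), kB (GGG, any 3 bases, TTCC) and AP-1 (TGANTCA). Cxcl10 (chr5:92348840-92349139, minus strand) and Vash2 (chr1:190979247-190979546, minus strand) read as follows.
Cxcl10: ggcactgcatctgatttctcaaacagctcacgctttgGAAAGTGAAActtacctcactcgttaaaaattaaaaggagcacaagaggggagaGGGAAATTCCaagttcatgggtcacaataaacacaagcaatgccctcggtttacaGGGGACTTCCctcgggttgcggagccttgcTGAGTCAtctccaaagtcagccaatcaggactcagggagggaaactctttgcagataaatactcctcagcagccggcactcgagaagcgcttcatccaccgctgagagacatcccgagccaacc
Vash2: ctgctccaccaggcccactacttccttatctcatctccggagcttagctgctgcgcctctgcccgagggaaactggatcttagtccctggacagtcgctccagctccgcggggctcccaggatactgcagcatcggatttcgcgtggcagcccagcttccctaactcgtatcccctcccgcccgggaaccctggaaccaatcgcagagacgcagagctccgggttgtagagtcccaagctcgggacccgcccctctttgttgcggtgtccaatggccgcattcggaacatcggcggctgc
The Cxcl10 window holds 1 ISRE, 2 kB and 1 AP-1 match, in that order toward the start, and the Vash2 window holds none.

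Single matches in the windows of other large rises are shown with up to 5 bases on each side, as the strand of the gene reads, so that some appear as the reverse complement. The first base of the match lies 104 and 85 bases before the start in Ifit1, 97 and 78 before it in the 2 Cxcl2 matches shown, 165 in Gbp5, 78 in Edn1 and 44 in Il6.
Ifit1 ISRE, farther: ttcagTTTCACTTTCcagtc
Ifit1 ISRE, nearer: ctcagTTTCAGTTTCtcact
Gbp5 ISRE: tgtagTTTCAATTTCagttt
Edn1 ISRE: ggtgtTTTCTTTTTCttagc
Cxcl2 kB, farther: gctcaGGGAATTTCCctggt
Cxcl2 kB, nearer: tccccGGGCTTTTCCagaca
Il6 kB: aatgtGGGATTTTCCcatga
Cxcl2 holds another kB match that overlaps the farther one by all but 1 base. The windows of Il1b, Tnf, Irg1 and Nlrp3 hold no match to any of the 3 motifs, which says only that these letters are not in these 300 bases.

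The largest falls were in genes of several functions and reached smaller sizes. Vash2 (NR_027352, chr1:192771525-192803175), which encodes a tubulin carboxypeptidase, went from 61 reads to 1, a ratio of 0.0176 (0.000439 to 0.102). Rhov went from 112 to 5 reads, a ratio of 0.0480 (0.0153 to 0.115). The best counted of them was Fbxo32 (NM_026346, chr15:58007434-58046447), a ubiquitin ligase subunit of muscle atrophy, with 281 vehicle and 25 KLA reads, 10.5-fold lower (ratio 0.0956, 0.0608 to 0.144). Sh2d3c, a signaling adaptor, went from 198 to 18 reads, 10.2-fold lower. The orphan receptor gene Gpr157 went from 32 reads to 0, the long noncoding RNA Kcnq1ot1 from 91 to 10, and the nuclear pore gene Aaas from 23 to 2. Gne, an enzyme of sialic acid synthesis, went from 31 to 4 reads, the clock gene Per1 from 51 to 8, and the receptor gene Cd300lb from 102 to 18. Of these 10 genes, Fbxo32 had the larger fall in the siCtl-labelled arm, from 322 reads to 18, but the difference of 0.54 (-0.36 to 1.43) was not called. Aaas showed the least there, 33 reads and 20. Kcnq1ot1 had 508 and 38 reads in the much smaller siPhf2-labelled libraries, far above its level in the other 4.

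**Figure D2:**
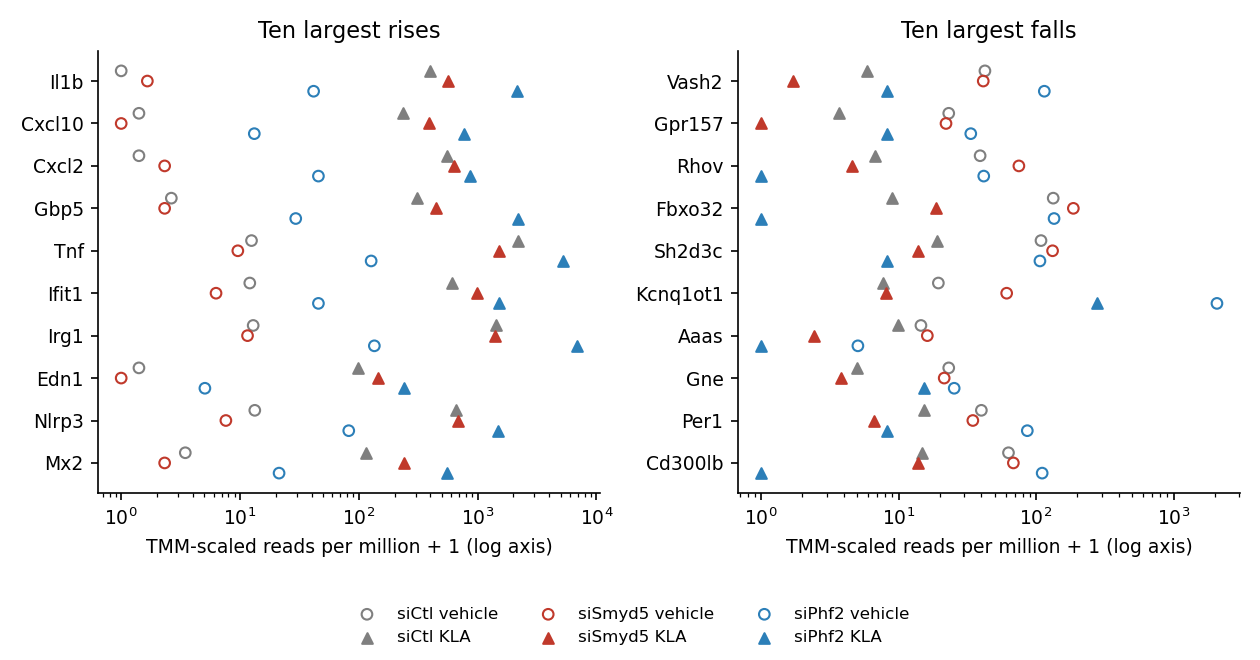
Level of the 10 genes with the largest rise (left) and the 10 with the largest fall (right) in each of the 6 libraries, in TMM-scaled CPM plus 1 on a log axis. Open circles are vehicle and filled triangles KLA, colored by the arm's label, and in all 20 genes the KLA symbol of each arm lies on the same side of its vehicle symbol.

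The receptor and signaling genes of the TLR4 pathway changed by less than its targets, though they rose more often than measured genes in general. Of 23 measured members, 6 rose and 1 fell, with a median log2 ratio of 0.38. Of all measured genes 8.68% rose and 3.48% fell, which are the shares to set beside the counts of this and the following lists. Cd14, the co-receptor, went from 285 to 797 reads (ratio 3.01, 2.62 to 3.45), and Ripk2, a kinase of the NOD pathway, from 69 to 454 (7.07, 5.48 to 9.25). Myd88 (58 and 118 reads), the ubiquitin ligase Traf6 (33 and 69), the inhibitory Irak3 (24 and 65) and the kinase Map3k8 (33 and 65) also rose. Ticam1, the TRIF adaptor, fell from 144 to 53 reads (0.396, 0.283 to 0.546). Tlr4 itself had 172 and 95 reads, a ratio of 0.594, which is under the size asked for.

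Secreted cytokines and growth factors rose in most cases. Of the 21 measured, 17 rose and none fell, with a median log2 ratio of 3.51, or 3.42 with genes at 0 vehicle reads set to their bound. Il6, a cytokine of the acute phase, had 1 vehicle and 178 KLA reads, and Il1a 51 and 1417. Tnfsf9, the ligand of 4-1BB, had 6 and 297 reads, and the activin subunit gene Inhba 60 and 293. Genes with no vehicle read included Il23a (46 KLA reads), Tnfsf15 (44), Il27 (41), Csf2 (36), Il12b (22) and Lif (19). Il15 had 7 and 90 reads and Csf1, the macrophage growth factor, 61 and 208. The 4 that did not pass were Il18 (15 and 16 reads), Vegfa (35 and 30), Ebi3 (12 and 14) and Il1rn, the interleukin 1 receptor antagonist, whose 323 and 593 reads gave a ratio of 1.97. Of list members with fewer reads than the measured minimum, Ifnb1, the interferon beta gene, had 0 vehicle and 19 KLA reads and Il10 had 0 and 29.

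Of 15 measured chemokine genes, 10 rose and none fell, with a median log2 ratio of 3.68. The monocyte chemokines Ccl2 (61 and 1528 reads), Ccl7 (7 and 297), Ccl3 (61 and 1091) and Ccl4 (20 and 965) rose, as did the neutrophil chemokines Cxcl1 (1 and 222) and Cxcl3 (0 and 25). Smaller rises were those of Cxcl16 (152 and 306) and Ccl9 (38 and 90). Ccl5 had 240 and 331 reads, a ratio of 1.48 (1.25 to 1.76), and Ccl6, Ccl8, Cxcl5 and Pf4 also stayed under the size asked for. Ccl5 had 240 and 448 reads in the siCtl-labelled arm but 1 and 61 in the siPhf2-labelled arm.

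NF-kB subunits, their inhibitors and feedback regulators formed the list with few exceptions to the rise: 21 of 25 rose and none fell, at a median log2 ratio of 3.14. Nfkbia, which encodes the inhibitor IkB alpha, had 47 vehicle and 920 KLA reads (ratio 21.0, 15.7 to 28.8). Tnfaip3, the deubiquitinase A20, had 63 and 1323 reads (22.6, 17.5 to 29.5). The atypical inhibitor gene Nfkbiz had 11 and 467 reads, and Nfkbie 1 and 146. Among the subunits, Nfkb1 (98 and 822), Nfkb2 (37 and 407), Rel (20 and 235) and Relb (24 and 113) rose with ratios of 9.02, 11.8, 12.6 and 5.06. Rela (139 and 355) rose least, with a ratio of 2.75 (2.25 to 3.36). The cytokine signaling inhibitor Socs3 had 5 and 210 reads and Socs1 0 and 31, which is at least 11.1-fold higher. Icam1, an adhesion molecule, had 48 and 823 reads. Tnip2, Traf2, Birc2 and Cyld did not pass.

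Interferon-stimulated antiviral effectors rose almost throughout, with 37 of 40 higher, none lower and a median log2 ratio of 3.05. Beside Ifit1 and Mx2, Ifit2 had 13 vehicle and 952 KLA reads (ratio 78.7, 45.8 to 148), Cmpk2 11 and 659, Mx1 21 and 931, Rsad2, which encodes viperin, 64 and 1783, and the ubiquitin-like Isg15 39 and 998. The RNA sensors Ifih1 (67 and 1092) and Ddx58 (43 and 181) and the helicase Dhx58 (32 and 62) rose as well. The 3 that did not pass were Oas1a (118 and 162 reads), Bst2 (148 and 181) and Samhd1 (257 and 403), with ratios of 1.48, 1.31 and 1.69. The Ifit, Oas and Mx genes have near-identical copies, among which reads could be split. Of 17 receptors, STATs and IRFs, 8 rose and none fell, among them Irf1 (35 and 500 reads), Jak2 (74 and 493), Stat2 (39 and 218), Irf9 (32 and 101), Ifnar1 (69 and 198), Ifngr1 (88 and 220) and Irf4 (3 and 12). Irf7, itself a gene of the interferon response, had 312 and 396 reads, a ratio of 1.36 (1.17 to 1.59), against 2 and 51 reads in the siPhf2-labelled arm.

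Enzymes and effectors of activated macrophages rose in 19 of 26 cases, with none lower and a median log2 ratio of 1.42. Beside Irg1, the largest were Nos2, the inducible nitric oxide synthase, with 2 and 199 reads, and Ptgs2, the inducible cyclooxygenase, with 31 and 1140 (ratio 39.5, 27.7 to 58.5). Cd40, a costimulatory receptor, had 15 and 261 reads, the arginine transporter Slc7a2 18 and 281, and the lectin receptor Clec4e 49 and 576. Sod2, Mmp13, Serpinb2 and Plaur rose at smaller ratios or levels. Arg1 (79 and 56 reads), Saa3 (445 and 389), Lcn2, Mmp9, Cd86, Slc2a1 and Hif1a (248 and 454) did not pass.

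Immediate early and MAP kinase feedback genes went in both directions, with 9 of 19 higher and 3 lower. Egr1, an early growth response factor, had 11 and 131 reads and Junb 100 and 325. The MAP kinase phosphatases Dusp4 (15 and 84), Dusp5 (12 and 52), Dusp6 (6 and 18) and Dusp16 (29 and 74) rose. Jun fell from 111 to 35 reads (ratio 0.339), Fos from 23 to 7 and Dusp1 from 123 to 33 (0.288, 0.190 to 0.426).

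Macrophage lineage genes were level by their median log2 ratio of 0.06. Of 23, 3 rose and 2 fell, where 8.68% and 3.48% of all measured genes did. The transcription factors Cebpb (128 and 255 reads), Tfec (61 and 278) and Mitf (19 and 69) rose. Cebpa fell from 88 to 18 reads (0.220, 0.125 to 0.368) and Maf from 29 to 10. Csf1r (373 and 433), Sfpi1, which encodes PU.1 (278 and 242), and Mrc1 (442 and 516) had ratios of 1.25, 0.936 and 1.25. Of 15 class I presentation and immunoproteasome genes 5 rose, namely Tap1 (72 and 166), Tapbp (233 and 461), Psmb8 (114 and 220), H2-M3 (28 and 81) and the transactivator Nlrc5 (26 and 75). None of 7 class II genes was called, at a median log2 ratio of -0.34.

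Metabolic and housekeeping lists held from 0 to 4 called genes each, where 12.2% of all measured genes were called in either direction. In lipid handling 2 of 20 rose, the cholesterol exporter Abca1 (115 and 284 reads) and Ch25h, which makes 25-hydroxycholesterol (12 and 83), and 2 fell, the nuclear receptor Pparg (120 and 47) and the lipid droplet gene Plin2 (1722 and 688, ratio 0.429, 0.393 to 0.469). In sterol synthesis Insig1 rose (45 and 103) and Mvd fell (91 and 38), among 17. In glycolysis Hk2 rose (86 and 183) and Pfkfb3 fell (64 and 21), among 19. Of 11 Nrf2 and antioxidant genes 2 rose, Slc7a11 (22 and 117) and Txnrd1 (284 and 554), and of 13 unfolded protein response genes only Herpud1 (19 and 39). None of 25 respiratory chain genes and none of 25 lysosomal genes was called, with medians of -0.10 and -0.21. Of 7 cell cycle genes 3 rose, the proliferation marker Mki67 (16 and 183 reads), Cdkn1a, which encodes the inhibitor p21 (47 and 195), and Ccne1 (19 and 46), whereas Top2a (13 and 19), Mcm2, Mcm3 and Pcna (121 and 106) did not pass. Among 18 genes of H4K20 methylation, demethylation and the NCoR complex, Smyd5, the H3K27 demethylase Kdm6b (14 and 169) and Jhdm1d (16 and 55) rose and none fell. Ncor1 had 305 and 210 reads.

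**Figure D3:**
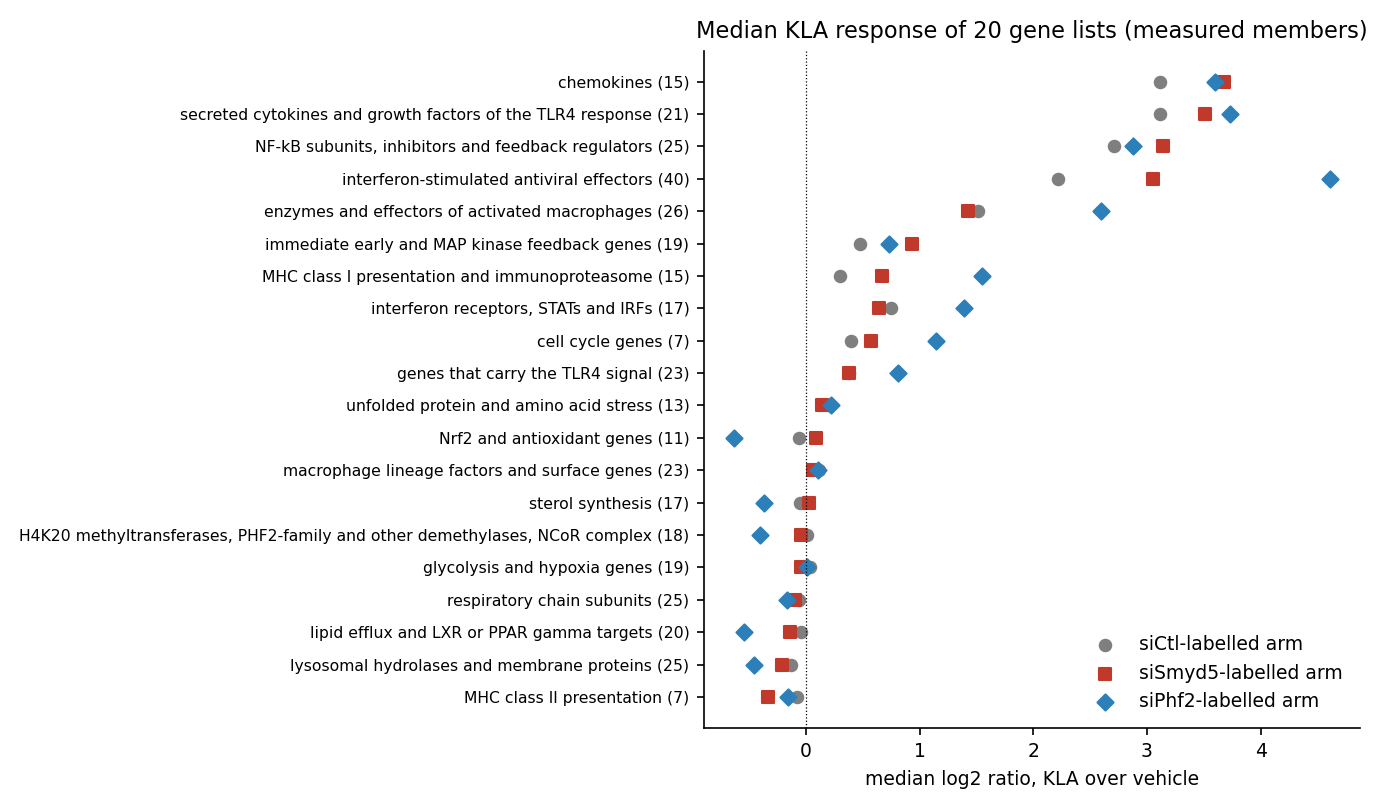
Median log2 ratio of KLA to vehicle for the measured members of 20 gene lists (number in brackets) in each arm. In the siSmyd5-labelled arm 4 lists lie above a log2 ratio of 3, chemokines, cytokines, NF-kB with feedback genes, and interferon-stimulated effectors, and the effector list is the one where the 3 arms are farthest apart.

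By share of the library, the gain was spread over many genes. The 10 genes with the largest gain took 0.0981% of the reads under vehicle and 1.97% under KLA (Rn45s left out), where the 694 risen genes together went from 3.32% to 14.6%. They were Tnf, the chemokine-binding receptor Ccrl2 (177 and 2250 reads), the receptor gene Tlr2 (46 and 2071), Irg1, Rsad2, the Schlafen gene Slfn2 (395 and 2079), Ccl2, Ifit1, Il1a and Tnfaip3. Per transcript length the order under KLA was Ccl2 at 2087 CPM per kb, with library totals free of Rn45s and unscaled by TMM, Tnf at 1439, Slfn2 at 1372 and Ccrl2 at 1170, with the other 6 at 840 or less. In the siCtl-labelled arm the same 10 genes took 0.0896% and 1.89%. The genes that lost the largest shares included very abundant genes that were not called. They were looked up after their values were seen: Gpnmb, a glycoprotein of phagocytes, went from 2.74% to 1.92% of the reads, the cathepsin gene Ctsd from 1.47% to 0.821%, and the ferritin gene Fth1 from 2.30% to 1.77%. The 10 largest losers took 12.6% and 8.98% in this arm and 11.0% and 8.96% in the siCtl-labelled arm.

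Some of the genes that rose were neighbors on the chromosomes. How often measured genes in general form such runs was not computed, so no excess of neighbors among risen genes is shown. On the deposited mm9 coordinates there were 14 runs of 3 or more risen genes with gaps of at most 100 kb, and they held 58 of the 694, or 8.36%. The longest run was on chromosome 11, where 8 of 10 measured genes rose, 7 of them Schlafen genes (log2 ratios from 1.32 to 4.00). On chromosome 1, 6 of 7 genes of the Ifi200 family and its neighbors rose, from Ifi204 at 1.59 to Ifi205 at 4.87. On chromosome 19 the run of Ch25h, Ifit2, Ifit3, Gm14446, I830012O16Rik and Ifit1 held 6 of 7 measured genes, with a median log2 ratio of 5.21. All 6 H2-Q genes in a run on chromosome 17, all 4 Gbp genes in the run of chromosome 3 and all 4 genes in the run of chromosome 5 (Oas2, Oas3, Oas1b and Oas1g) rose. Not all runs were this complete: that of Daxx, Tapbp and H2-K2, also on chromosome 17, held 3 risen genes of 10 measured, and 1 fell. Oas1a, next to the Oas run, did not pass. Members of these families are close copies, so reads of a single member may have been counted in others.

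The promoters of genes that rose held each of the 3 motifs in a larger share than those of all measured genes. A RefSeq window was matched by gene ID for 6437 of the 7995 measured genes (80.5%), 559 of the risen and 225 of the fallen. An ISRE match was present in 3.22% of all windows, in 8.94% of those of risen genes, in 16 of 46 (34.8%) of those risen by a log2 ratio of at least 4, and in 1 of 225 (0.444%) of fallen genes. A kB match was present in 6.43%, 9.84%, 23.9% and 4.44% of the same sets, and an AP-1 match in 5.14%, 9.30%, 19.6% and 4.44%. Read the other way, 24.2% of the 207 genes with an ISRE match rose against 8.17% of those without, and 13.3% of the 414 with a kB match against 8.37%. The windows also differed in CpG content: an observed to expected CpG ratio of at least 0.6 was found in 77.4% of all windows, 60.3% of risen genes, 17.4% of those risen by a log2 ratio of at least 4 and 71.6% of fallen genes. A match is a string of letters and not a site shown to be bound.

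Most of the response was shared with the siCtl-labelled arm, in which 553 genes rose (6.92%) and 192 fell (2.4%), or 9.32% in either direction. The genes that rose in both numbered 471, which is 67.9% of those of the siSmyd5-labelled arm and 85.2% of those of the siCtl-labelled arm. The genes that fell in both numbered 91, or 32.7% and 47.4%. No gene rose in one of these arms and fell in the other. Across the measured genes the log2 ratios of both arms had a Pearson correlation of 0.843, a description over genes that share libraries and are not independent. Of the 223 genes that rose here and not there, 206 were above 0 in the siCtl-labelled arm too, and for 32 the difference between the arms was itself called. Of the 187 that fell here and not there, 168 were below 0 in the siCtl-labelled arm too, and for 24 the difference was called. With the siPhf2-labelled arm, where 677 genes rose (8.47%) and 530 fell (6.63%), 378 risen genes were shared, 54.5% of those here, and the correlation was 0.494. In all 3 arms 310 genes rose and 36 fell.

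**Figure D4:**
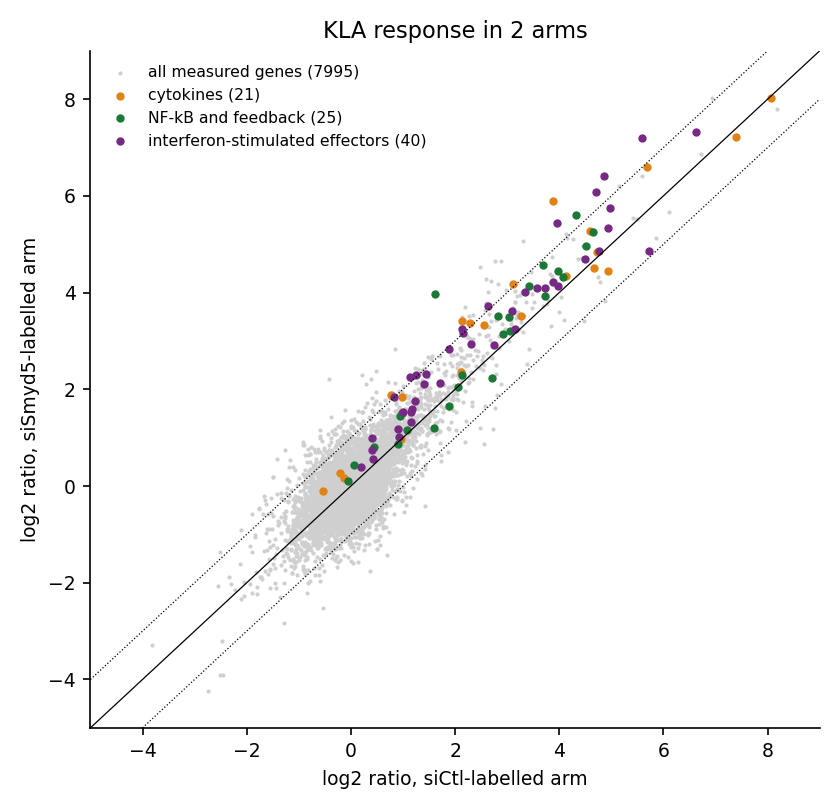
Log2 ratio of KLA to vehicle in the siSmyd5-labelled arm (vertical axis) against the siCtl-labelled arm (horizontal axis), 1 point for each of 7995 measured genes, with 3 gene lists colored. The solid line is equality and the dotted lines a difference of 1, and 39 of the 40 interferon-stimulated effectors lie above equality.

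To compare the size of the response without choosing genes on either arm, the 405 genes that rose by a log2 ratio of at least 2 in the siPhf2-labelled arm were taken. Their median log2 ratio was 1.75 in the siSmyd5-labelled arm and 1.42 in the siCtl-labelled arm. The median difference was 0.25, and 295 of the 405 (72.8%) were above 0, against 49.2% of all measured genes, whose median difference was -0.0071. These genes were the more KLA-responsive, and the differences come from 4 libraries, so the 405 are not independent observations.

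The difference between the siSmyd5- and siCtl-labelled arms was called, at a size of at least 1 on the log2 scale with a counting interval excluding 0, in 92 genes with a larger log2 ratio here (1.15%) and 72 with a smaller one (0.901%), 2.05% in all. With an assumed spread between libraries of 20% (a coefficient of variation of 0.2), 13 and 4 remained called. Of the 92, 18 rose in both arms and by more here. They include antiviral genes, Ifit1, Ifit2, Mx1, Oas2, Oasl2, Gbp3, Irgm2, Pyhin1 and Xaf1, and others, Ptgs2, Mmp13, Vcam1, Nod1, H2-M2, Ccrn4l, Fzd1, Plagl2 and Zufsp. Those of them outside the gene lists, such as Vcam1, an adhesion molecule for leukocytes (14 and 291 reads here, 67 and 393 in the siCtl-labelled arm), are named after their values were seen. A further 32 rose here only, 11 fell in the siCtl-labelled arm only, 1 fell in both and 30 passed in neither arm. Of the 72, 24 fell here only, 7 rose in the siCtl-labelled arm only, 1 fell in both and 40 passed in neither.

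The called differences lay more in the vehicle libraries than in the KLA libraries. In the 92 genes the siSmyd5-labelled library was below the siCtl-labelled one under vehicle by a median log2 ratio of -0.86, and above it under KLA by 0.49. The vehicle side held the larger part in 61 of the 92. In the 72 the medians were 0.81 under vehicle and -0.49 under KLA, and the vehicle side was the larger in 46. The genes were thinly covered, with medians of 16 vehicle and 33 KLA reads among the 92. A low vehicle count raises a ratio by construction, and its part in these differences was not tested.

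The interferon-stimulated effectors as a list differed on the KLA side. Over the 40 genes the siSmyd5- and siCtl-labelled libraries were level under vehicle, with a median log2 ratio of -0.02, and the siSmyd5-labelled library was higher under KLA, at 0.55. The KLA response exceeded that of the siCtl-labelled arm in 39 of 40, by a median of 0.53, and the exception was Ifi205 (18 and 549 reads here, 9 and 618 there). The difference from siCtl was above 0 in 49.2% of all measured genes and in 72.8% of the 405 genes chosen on the siPhf2-labelled arm. Among the 694 risen genes, which include 37 of the 40 and were chosen on this arm's ratios, it was above 0 in 570. Of those 694, it was called higher in 18 that rose in both arms and in 32 that rose here only. As the 40 genes come from the same 4 libraries and include close copies, they are not independent observations. The difference was called in 6, where 1.15% of all measured genes were called higher: Ifit1, Ifit2, Mx1, Oas2, Oasl2 and Gbp3. In some of these the vehicle libraries stood apart as well. Ifit1 was at 5.28 CPM here and 11.1 with siCtl under vehicle, and at 992 and 603 under KLA. Oas2 was at 14.5 and 26.7 CPM under vehicle and at 77.4 and 65.7 under KLA, so that its vehicle side was the larger. Mx1 lay mostly on the KLA side, with 13.9 and 16.4 CPM under vehicle and 661 and 276 under KLA. Oasl2, a 2-5 oligoadenylate synthetase-like gene, had the most vehicle reads of them, with 108 and 489 reads here and 245 and 504 in the siCtl-labelled arm, ratios of 4.87 (3.94 to 6.05) and log2 ratios of 2.26 and 1.14. Mx1 had 21 and 931 reads here and 40 and 623 there, and Irgm1, whose difference of 0.71 (0.41 to 1.01) was below the size asked for, 196 and 798 against 278 and 688. Against the siPhf2-labelled arm the direction was the opposite, with a median difference of -1.64, 9 of 40 above 0 and 21 called lower, where 4.2% of all measured genes were called lower and 6.5% higher. The response of these genes here therefore lay between the other arms, and it would be below that of control siRNA if the siCtl and siPhf2 names were exchanged.

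The inflammatory lists differed from the siCtl-labelled arm in another way. For cytokines, 17 of 21 had the larger response here (median difference 0.42) and for NF-kB and feedback genes 20 of 25 (0.35), but the libraries stood apart under vehicle by medians of -0.35 and -0.35 and under KLA by only 0.17 and 0.13. The difference was above 0 in 49.2% of all measured genes, in 72.8% of the 405 genes chosen on the siPhf2-labelled arm and in 570 of the 694 risen genes. The 694 risen genes were chosen on the ratios of this arm, which favors differences above 0. Nearness of the 2 lists to their share therefore cannot show whether the counts are particular to the lists. No difference of a member of either list was called. In the class I list that of H2-M3 was, with 28 and 81 reads here and 76 and 78 in the siCtl-labelled arm. Csf1 (61 and 208 reads here, 182 and 336 there, difference 0.85, 0.37 to 1.34) and Icam1 (48 and 823, 114 and 1155, difference 0.73, 0.23 to 1.23) had intervals above 0. Tnf (13 and 2118, 28 and 4929, difference -0.17, -1.11 to 0.76) and Il1b did not. Among immediate early genes 16 of 19 lay above the siCtl-labelled arm, Dusp1 (difference -0.91, -1.55 to -0.27) being the farthest below. Ticam1 (-0.81, -1.35 to -0.26) and Ccl3 (-0.56, -1.09 to -0.04) also responded less here. The summed level of macrophage markers was 4588 and 4647 CPM here and 3609 and 4060 in the siCtl-labelled arm, and its part in these differences was not tested.

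Genes that responded differently from both other arms were few, 15 above (0.188% of measured genes) and 7 below (0.0876%), 0.275% in all, and most had few reads. With the assumed spread of 0.2, 2 and 0 were called, and with total-read scaling 0 were called below. The largest difference above both was that of Pkdcc (NM_134117, chr17:83614623-83624409), a secreted protein kinase, with 1 vehicle and 12 KLA reads here, 36 and 24 with siCtl and 12 and 1 with siPhf2. Its log2 ratios were 2.21, -0.42 and -2.53. Next by the smaller of the 2 differences came Znrd1, an RNA polymerase I subunit (17 and 28 reads here, 31 and 10, 5 and 0). Lnp, an endoplasmic reticulum shaping gene, had 10 and 51 reads here, 42 and 52 with siCtl and 9 and 6 with siPhf2. Both other arms were near level for Lnp, with log2 ratios of 0.39 and 0.23 against 2.22. Znrd1, Ptger4, Nuak2, Eepd1 and Timm8b had no read in the siPhf2-labelled KLA library, so their difference from that arm rests on the reads added. Their ratios here all lie within that arm's exact intervals. These were 1.77 (Znrd1), 1.65 (Ptger4) and 1.63 (Timm8b) within 0 to 1.94. Nuak2 was at 0.699 within 0 to 0.792 and Eepd1 at 0.365 within 0 to 0.380. The counts of that arm therefore do not set these genes apart.

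Ifit1 had the most KLA reads of the 15 but few vehicle reads. It had 8 and 1397 reads here, 27 and 1360 with siCtl and 11 and 208 with siPhf2. Its response was larger by 1.61 (0.49 to 2.72) than in the siCtl-labelled arm and by 2.17 (0.87 to 3.47) than in the siPhf2-labelled arm. Its 2 ISRE matches are those printed above. Itpkb (chr1:182260607-182353790), an inositol trisphosphate kinase, had 10 and 48 reads here, 51 and 88 with siCtl and 44 and 9 with siPhf2, and C230081A13Rik 20 and 54, 144 and 170, and 29 and 10. Agap1, a GTPase activator of membrane traffic, had 45 and 84 reads here against 131 and 117 and 49 and 11. In these 3 genes the vehicle level here was below that of the siCtl-labelled arm and the KLA response was the largest of the arms. Nr2c2, Wash, Snord55 and 2900010M23Rik complete the 15, with differences from the siCtl-labelled arm of 1.16 to 1.58. Only Pkdcc, Lnp, Ifit1, Nr2c2, Itpkb and C230081A13Rik among them rose here by the rule. Eepd1 fell here, from 56 to 19 reads (ratio 0.365, 0.205 to 0.623), and Nuak2 had a ratio of 0.699. The others had log2 ratios of 0.64 to 0.97 here, under the size asked for. Of the 15, 2900010M23Rik, Eepd1, C230081A13Rik, Timm8b and Agap1 rank below the first 10 and are named after their values were seen.

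Below both arms, Bcl6 and Pfkfb3 had the most reads. Bcl6 (chr16:23965138-23988698), a transcriptional repressor of inflammatory genes, fell here from 61 to 13 reads, a ratio of 0.229 (0.115 to 0.421). It had 147 and 77 reads with siCtl and 10 and 5 with siPhf2, log2 ratios of -0.79 and -0.17 against -1.96. Pfkfb3 (chr2:11393058-11423717), which makes an activator of glycolysis, fell from 64 to 21 reads here, had 105 and 76 in the siCtl-labelled arm, and went from 9 to 17 in the siPhf2-labelled arm. The difference was -1.07 (-1.90 to -0.25) from the former and -3.12 (-4.46 to -1.78) from the latter. Also below both were Gar1, Dnajc16, Kremen1 and Gbas, with 15 to 28 vehicle reads here. Gar1, a small nucleolar RNP protein, was the farthest below both, with 22 and 7 reads here, 18 and 25 with siCtl and 0 and 2 with siPhf2. Its difference from the siPhf2-labelled arm, -4.72 (-9.26 to -0.18), rests on the reads added. The Gar1 ratio here, 0.342, lies within that arm's exact interval, which starts at 0.333 and has no upper limit. Kremen1 and Gbas also had few reads in that arm, 2 and 6 and 2 and 4.

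**Figure D5:**
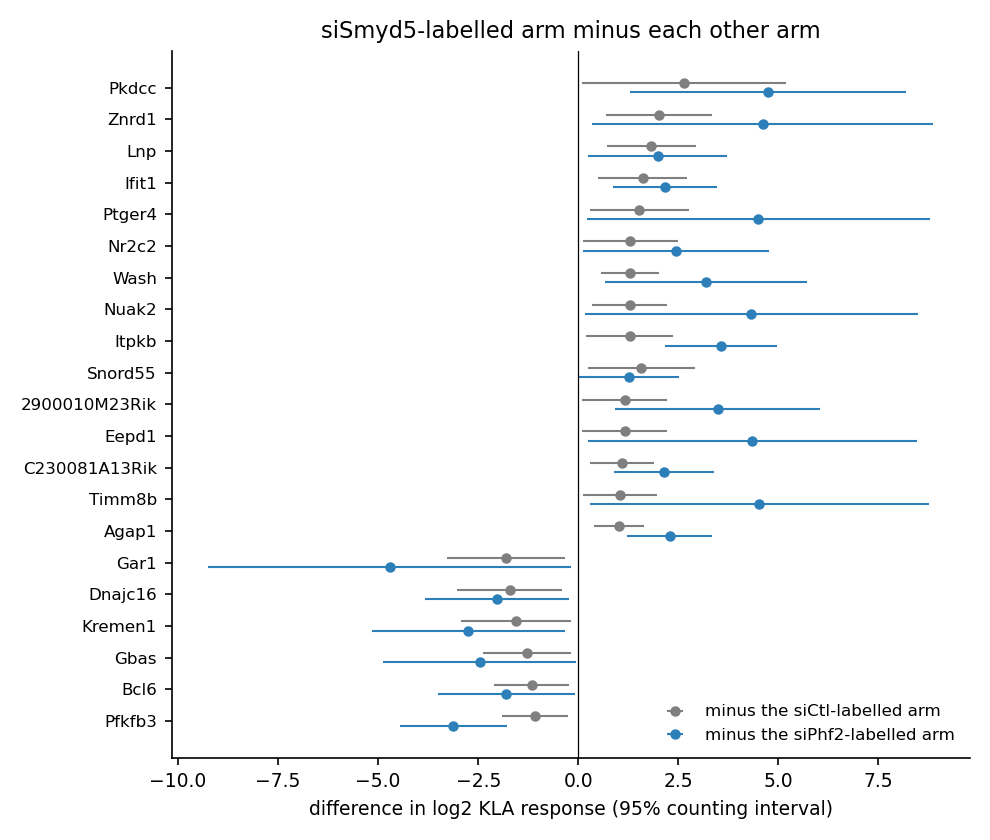
Difference in the log2 KLA response, siSmyd5-labelled arm minus the siCtl-labelled (gray) and minus the siPhf2-labelled arm (blue), for 21 of the 22 genes that differed from both, with 95% counting intervals. The gray points lie between 1.02 and 2.64 for the 15 genes above and between -1.81 and -1.07 for the 6 below that are drawn, and the intervals against the siPhf2-labelled arm are the wider ones in most genes.

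The promoters of Pkdcc and Gar1, the genes at the 2 ends of this ordering, are shown for comparison with that of Cxcl10. The first is chr17:83215033-83215332, plus strand, and the second chr3:129831347-129831646, minus strand, on GRCm38.p6.
Pkdcc: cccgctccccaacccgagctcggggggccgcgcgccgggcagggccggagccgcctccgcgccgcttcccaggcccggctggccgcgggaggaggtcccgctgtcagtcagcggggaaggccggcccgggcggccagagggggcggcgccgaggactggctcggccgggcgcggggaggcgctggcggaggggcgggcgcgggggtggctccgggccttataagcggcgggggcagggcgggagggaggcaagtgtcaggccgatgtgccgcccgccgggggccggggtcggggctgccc
Gar1: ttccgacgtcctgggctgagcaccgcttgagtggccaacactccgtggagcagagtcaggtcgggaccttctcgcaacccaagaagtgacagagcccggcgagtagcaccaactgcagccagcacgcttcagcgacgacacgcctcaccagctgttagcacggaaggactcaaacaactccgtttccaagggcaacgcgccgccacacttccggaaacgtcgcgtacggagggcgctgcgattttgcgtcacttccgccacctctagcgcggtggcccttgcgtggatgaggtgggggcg
Neither holds a match to the 3 motifs, and both are rich in CpG, with observed to expected ratios of 0.849 and 1.01 against 0.528 in Cxcl10 and 0.766 in Vash2. Of the 13 genes above both arms that have a window, 1 holds an ISRE match (Ifit1) and 1 a kB match. The windows of the 79 matched genes with a larger response than in the siCtl-labelled arm held an ISRE match in 7.59%, a kB match in 10.1% and an AP-1 match in 3.8%, against 8.94%, 9.84% and 9.30% in risen genes as a whole.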

How the data were processed

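Poly(A) RNA of 6 libraries was sequenced on a Genome Analyzer, per the labels' protocols, 1 library per group. The authors deposited a signal value per RefSeq transcript, scaled to 10000000 tags per library per the file headers, with mm9 coordinates. The submitters' processing notes name HOMER and mm9, with no role or version, and for aligner and counting rule each was not given in the sources used here. As the labels mention no molecular identifiers, a molecule may have been read more than once. Some genes that most cells use, such as Gapdh, are listed at 0 in the siSmyd5 columns.

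Whole reads were recovered from the deposited signal with the header totals (within 0.02 of a whole number), which is the unit of the count statements here and differs from the deposited one. For the siCtl and siPhf2 columns the total of the column of the same agent was used, as no other gave whole reads. Of several transcripts of a symbol the one with the highest mean was kept, and 2 transcripts that have no symbol (up to 2 reads) were left out. Libraries were scaled with TMM in edgeR 4.0.16 (R 4.3.3). Log2 ratios had 2 reads added in proportion to library size, whereas printed ratios had none and carry exact Poisson 95% intervals. The interval of a difference between arms came from the reads of the 4 libraries. Its width had 0.5 added to each count, whereas its center had the reads added in proportion to library size. With no read in a small library, the center can therefore move farther than the width allows for. With 1 library per group no test was possible. Fold bounds used a floor of 3 reads per library. The procedure was tested on simulated data.

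Genes were named by these rules: the 10 largest rises and falls, the 10 largest differences from both arms in each direction, members of gene lists, the siRNA targets, the 10 largest gains in share, and members of runs of neighbors. Genes named outside these rules are said to be chosen after their values were seen. The genes and lists were chosen with earlier results of these data known. Promoters of GRCm38.p6 come from RefSeq and were matched for 6437 of 7995 genes, and mm9 coordinates were not converted. There were 13 alternatives, among them DESeq2 1.42.0 size factors, total-read scaling, other minimums and added reads, an assumed coefficient of variation of 0.2 and exchanged names. The values of a few genes that fall under these rules are not reported here, though counts include them.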

Additional observations from a re-analysis of the deposited data

Results flagged for a closer look

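Itpkb had a log2 ratio of 2.13 in the siSmyd5-labelled arm (10 and 48 reads) and fell in the siPhf2-labelled arm (44 and 9 reads). Pfkfb3 had a log2 ratio of -1.42 here (64 and 21 reads) and rose in the siPhf2-labelled arm (9 and 17 reads). Each was noted because the arms moved in opposite directions, with 1 library per group, so the difference was not tested.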

How the results depend on the processing

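With a minimum mean of 50 reads 367 genes were called higher and 69 lower in the siSmyd5-labelled arm, and with a size bound of log2 2, 252 and 21. Total-read scaling gave 632 and 364, DESeq2 size factors 643 and 354, and they moved the median log2 ratio of all genes to -0.10 and -0.07. For the difference from siCtl, the counts higher and lower were 38 and 38 with 5 reads added, 13 and 4 with the assumed coefficient of variation of 0.2, 28 and 12 with the minimum of 50, 520 and 336 with names exchanged, and 4 and 1 with the size bound of 2. With 0.5 reads added 113 were lower. For the difference from siPhf2, the counts were 1080 higher with 0.5 reads added, 319 with 5, 331 with the minimum of 50, 280 and 153 with the assumed variation, 92 and 72 with names exchanged, and 298 and 141 with the size bound. Total-read scaling left 129 lower. For the difference from both arms, they were 32 and 11 with 0.5 reads added, 2 and 0 with 5, 2 and 0 with the assumed variation, 3 and 1 with the minimum of 50, and 2 and 0 with the size bound, and total-read scaling left 0 lower. The cause was not tested. Without the siPhf2-labelled libraries, an alternative chosen after seeing the data, 760 genes rose and 328 fell, and 125 and 81 differed from siCtl. Over the alternatives that gave a value, no log2 ratio changed direction among the largest rises and falls and the genes that differed from both arms. Differences between arms were followed only for the 22 genes that differed from both, and none of these changed direction. Differences from siCtl of other genes, the largest rises and falls among them, can turn with names exchanged. That of Oasl2 went from 1.12 to -2.19 and that of Tnf from -0.17 to 1.85. The interferon-stimulated effectors lay above siCtl in 39 of 40 under TMM, total-read and DESeq2 scaling. The sign of the list medians of macrophage lineage, Nrf2 and sterol genes, all near 0, turned under total-read scaling. With 1 library per group no replicate could be left out, and depth limits the genes with few vehicle reads.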
